A study of Mus musculus with 8 samples.

Results

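Type 1 conventional dendritic cells (cDC1) were described in tumours of Hepa1-6, a mouse hepatoma line. They were chosen by measured values: a cell was a member if the mean value of Xcr1, Clec9a and Wdfy4 was at least 0.8. The mean of the T-cell genes Cd3g and Trbc2 also had to be below 0.5, the mean of the macrophage complement genes C1qa, C1qb and C1qc below 0.8, and the mean of the mature dendritic cell genes Ccr7, Fscn1 and Ccl22 below 1.2. This rule took 273 of 53528 cells. The study profiled single cells of tumours in 4 groups: unedited tumours, labelled WT, given PBS; unedited tumours given an antibody against PD-1; Soat1-edited tumours given PBS; and Soat1-edited tumours given the antibody. In the labels the Soat1 editing is a knockout by title but a knockdown by genotype; mouse strain and age are not given in the labels used here. The cells carry a number from 1 to 6 in their names, and these 6 sets cannot be tied to the 4 groups, so neither the editing nor the antibody was compared. All values below are on the deposited natural log scale unless given as UMIs, and a level is the mean over the cells of a class within 1 set.

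As background, cDC1 develop under the transcription factors IRF8 and BATF3, take up material from dying cells and present its peptides on MHC class I to CD8 T cells, a route called cross-presentation. In tumours they are known for carrying antigen to lymph nodes and for attracting T cells with chemokines. After activation they switch to a mature program marked by CCR7, the receptor that guides them out of the tissue.

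The sets were treated as 6 unassigned samples, with no test between them or between classes. Values of set 1 could be turned back into whole UMIs, whereas sets 2 to 6 had been changed by a further step that no label records, so that agreement of the sets is not independent repetition. The 33 cDC1 of set 1 held 176573 UMIs in all, with 1064 to 16475 a cell and a median of 4361. The median was 2767 in the other myeloid cells of set 1, 1978 in mature dendritic cells and 19404 in hepatoma cells. Depth therefore moved with the classes, and its part in the differences below was not tested. The totals were unequal too, with 2179013 UMIs in other myeloid cells and 125749 in mature dendritic cells. UMI counts set side by side below are not scaled for these totals. Of all cells, 43848 carried a name that also occurs in another set, but these names are running numbers and not barcode sequences, so shared barcodes could not be counted. Among the cDC1, 2 shared their name with another member.

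The genes of the rule describe the cells and are no result. Wdfy4, which encodes a factor needed for cross-presentation, had levels of 2.15 to 2.47 (median 2.34). Xcr1, the receptor for the chemokine XCL1, ranged from 0.90 to 1.2 around a median of 1.00, and Clec9a, a receptor for actin exposed by dead cells, from 0.69 to 0.96 around 0.86. In other myeloid cells the highest set level was 0.23 for Wdfy4, 0.03 for Xcr1 and 0.13 for Clec9a. In set 1, where detection is known, 15 of the 33 members held UMIs of all 3 genes, 10 of 2 genes and 8 of 1 gene. Each of the 33 held at least 2 UMIs of these genes, with a median of 8.

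The marker mean of the members ran from 0.803 to 2.62 with a median of 1.33, without a gap at the threshold. Within 0.1 above it lay 44 members, and within 0.1 below it lay 101 cells that met the other 3 conditions. The 20 members just inside had a mean Naaa value of 2.61 and the 20 cells just outside 1.66, against 3.22 over all members. For Irf8 the same means were 1.34 inside, 0.743 outside and 2.17 over all members. Of 7 genes compared in this way, Naaa, Irf8, Cst3, Itgae, H2-Ab1 and Plbd1 had inside values between those outside and those of the whole class. Lyz2 did not, at 0.222 inside, 0.306 outside and 0.336 over all members. Of the 358 cells that reached the marker mean, 50 were removed for C1q genes, 28 for T-cell genes and 12 for mature genes, some of them for more than one reason.

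The share of cDC1 among all cells was 0.352%, 0.396%, 0.457%, 0.282%, 0.603% and 0.960% in sets 1 to 6, from 33, 30, 54, 22, 49 and 85 members. Pooled, it was 0.510% with an exact binomial interval from 0.451% to 0.574% at the 95% level. Set 6 was the highest of the 6, with an interval from 0.767% to 1.19%, and without it the pooled share was 0.421%. Set 4 was the lowest, with an interval from 0.177% to 0.427%. All intervals here cover counting error only.

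Among myeloid cells the order of the sets was different. Other myeloid cells were defined by a mean of at least 1 for Tyrobp and Fcer1g, signalling adaptors of many myeloid receptors, and numbered 4542. No limit was set on their T-cell or natural killer genes, so this class need not be all myeloid. The cDC1 made up 5.67% of both classes together (interval 5.03% to 6.36%), with 5.65%, 4.45%, 7.27%, 1.97%, 9.04% and 7.37% in sets 1 to 6. Set 4 stood below the others, its interval of 1.24% to 2.96% ending under the lower bounds of the other 5 sets. These intervals do not cover the step that changed the values of sets 2 to 6. In that set other myeloid cells took 14.1% of all cells, the highest of the 6, and mature dendritic cells outnumbered cDC1 by 43 to 22. Against mature dendritic cells alone, cDC1 were 33.8% of both in set 4 and 53.5% to 63.6% in the other sets. Without set 4 the pooled share among myeloid cells was 6.79%.

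**Figure D1:**
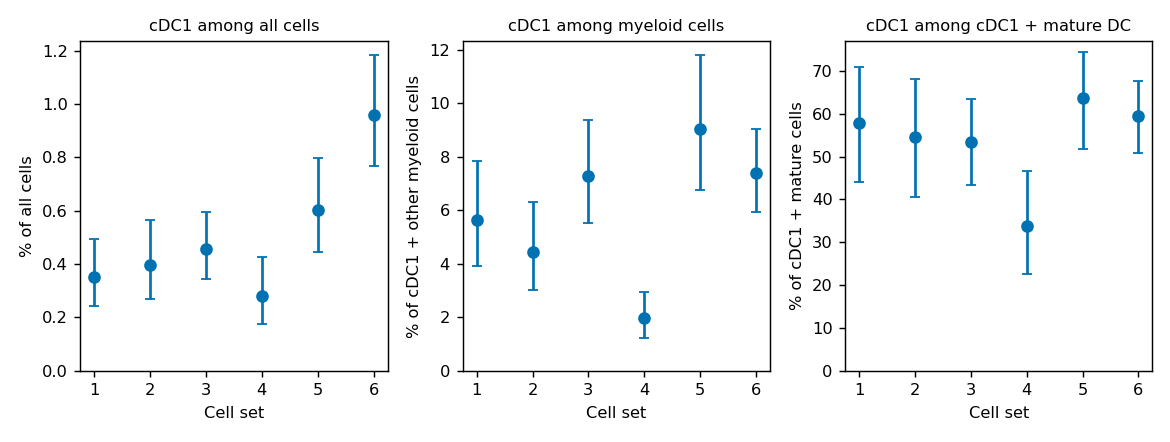
Percent of cDC1 among all cells (left), among cDC1 plus other myeloid cells (middle) and among cDC1 plus mature dendritic cells (right), for each of the 6 cell sets; points are shares and bars are exact 95% binomial intervals. Set 6 is highest among all cells at 0.960%, and set 4 is lowest in each panel.

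The myeloid gate itself fitted few of the cDC1. Of the 273 members, 61 (22.3%, interval 17.5% to 27.8%) passed it, and the share over the sets was 12.1% to 28.6%. Their Fcer1g level was 0.14 to 0.28 over the sets, against 1.69 to 1.82 in other myeloid cells, and their Tyrobp level 0.81 to 1.07 against 1.89 to 2.07. Tyrobp and Fcer1g chose the comparison cells, so these differences are a description. They also mean that most cDC1 differ by construction from the cells they are compared with.

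Against other myeloid cells, cDC1 had higher levels of chains of the MHC class II complex and of genes of the cDC1 lineage, and lower levels of several phagocyte genes. Lysosomal genes stood on both sides, with Naaa and Gm2a higher and Lyz2, Ctsb, Ctsc, Ctss and Lgmn lower. A gene was counted when its level differed by at least 0.5 in the same direction in all 6 sets. Of 1987 genes outside the rule, 22 were higher (1.11%) and 23 were lower (1.16%), while the median difference over all genes was -0.0024. Since the members were chosen on measured values of the same cells, these counts describe the class and test nothing. Overlap below refers to the ranges of the set levels of the classes, not to single cells. These ranges put levels of different sets side by side, and the share of all genes without overlap was not counted. With a marker mean of at least 0.6 the counts were 4 and 10, and with the members that passed the myeloid gate 14 and 8.

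The genes leading the higher group were Cst3 and Naaa. Cst3 encodes cystatin C, an inhibitor of cysteine proteases, and had levels of 4.12 to 5.07 in cDC1 (median 4.71) and 2.18 to 2.54 in other myeloid cells (median 2.25). The difference was 1.90 to 2.80 over the sets, and the 2 classes did not overlap. Naaa encodes a lysosomal amidase that breaks down fatty acid ethanolamides, and had levels of 2.92 to 3.46 (median 3.09) against 1.18 to 1.32 (median 1.22). In the summed UMIs of set 1, Cst3 stood at 19610 CPM (UMIs per 1000000) in cDC1, a ratio of 10.5 over other myeloid cells (interval 10.1 to 11.0). Naaa stood at 5171 CPM, a ratio of 7.17 (6.6 to 7.79). Every cell was then thinned to 1000 UMIs. A Naaa UMI was held by 84.8% of the set 1 cDC1, 32.3% of other myeloid cells and 1.17% of hepatoma cells. For Cst3 these shares were 100%, 66.8% and 39.4%. The share of hepatoma cells was thus low for Naaa and high for Cst3. Whether these UMIs were free RNA or came from the hepatoma cells themselves was not tested. Before thinning, hepatoma cells were also deeper (median 19404 UMIs against 4361 in cDC1), so their shares set no limit on free RNA in cDC1.

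Of 14 genes of the cDC1 identity list in the table, 6 were higher by the same rule and 0 were lower. Over all genes 1.11% were higher and 1.16% lower. The list's median difference was 0.58 against -0.0024 over all genes. The 6 were Naaa, Irf8, Itgae, Plet1, Ifi205 and Rab7b. Irf8, the transcription factor on which cDC1 depend, had levels of 1.84 to 2.30 in cDC1 (median 2.19) and 0.88 to 1.10 in other myeloid cells (median 0.98). Its difference was smallest in set 5, at 0.78, and 1.12 to 1.34 in the other sets. Among the members that passed the myeloid gate, of which sets 1 and 4 held 4 each, the Irf8 difference was not of 1 sign, with -0.24 as its weakest value. Itgae encodes the integrin chain CD103, which binds E-cadherin and marks cDC1 of many tissues. Its levels were 1.00 to 1.44 in cDC1 (median 1.11) and at most 0.04 in other myeloid cells, and set 1 held 74 UMIs in 33 cDC1 against 17 in 551 other myeloid cells. That was 419 CPM in cDC1, a ratio of 53.7 (interval 31.4 to 97.1). With thinned cells, 36.4% of the set 1 cDC1 and 0.0913% of hepatoma cells held an Itgae UMI.

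In all 6 sets 10 of the list's 14 genes were higher in cDC1, where 12.4% of all genes were. Besides the 6 genes above, these were Gpr141b, Sept3, Gcsam and Cd24a. Gpr141b, an orphan receptor gene, had levels of 0.41 to 0.60 in cDC1 and at most 0.02 in other myeloid cells, with 28 UMIs against 1 in set 1. Sept3, a septin gene, had 0.35 to 0.48 against at most 0.01, with 29 UMIs against 4. Gcsam had 0.17 to 0.31 against at most 0.01, with 12 UMIs against 0. None of these 3 reached the difference of 0.5 in all 6 sets. Cd24a, a surface glycoprotein gene, was at 0.70 to 1.08 against 0.22 to 0.32, but its level in hepatoma cells was 0.95 to 1.03. Cd8a, Tlr12, Cd36 and Itgb7 overlapped between cDC1 and other myeloid cells. Cd8a, which marks cDC1 of lymphoid organs, was at 0.09 to 0.29, and Tlr12, a receptor for profilin, at 0.12 to 0.41 against 0.14 to 0.46. Besides the 3 genes of the rule, the label of cDC1 thus rested on Irf8, Itgae, Naaa, Plet1, Ifi205, Rab7b, Gpr141b, Sept3 and Gcsam. Cd8a, Tlr12, Cd36 and Itgb7 did not separate cDC1 from other myeloid cells, and Irf8 did not separate them from mature dendritic cells. Another 22 genes of the list were not analysed here.

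**Figure D2:**
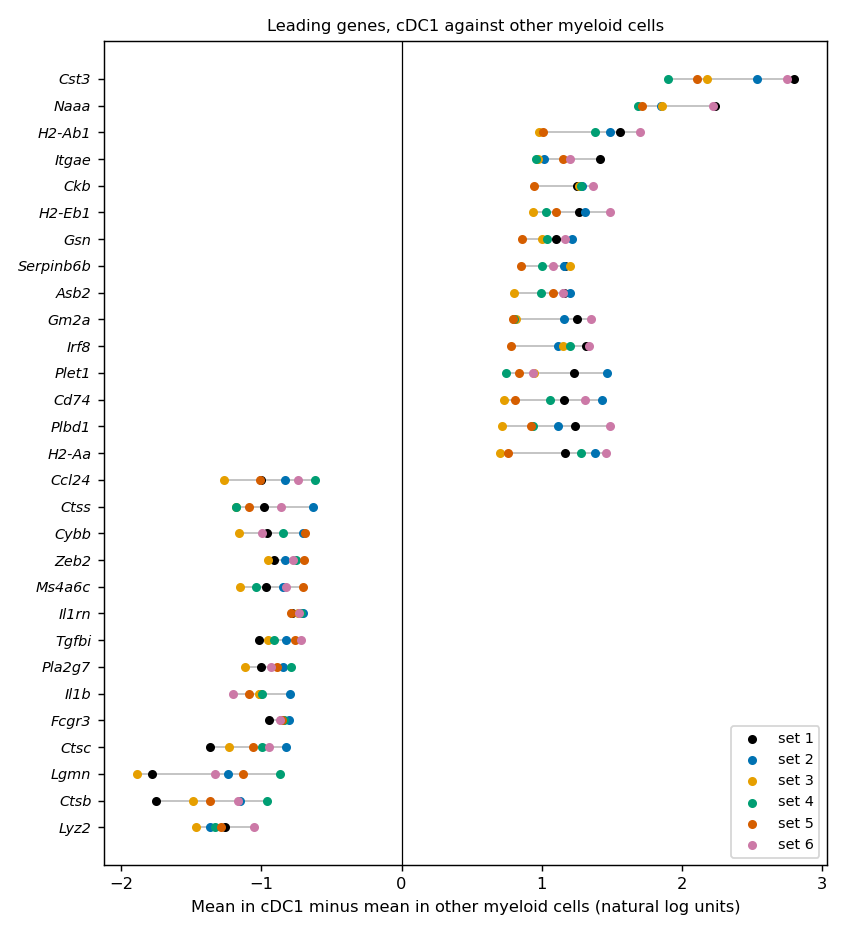
Difference of the mean value, cDC1 less other myeloid cells, in natural log units, for the 15 genes with the highest and 14 of the 15 with the lowest difference by their weakest set; each point is 1 of the 6 sets and the grey line spans them. Cst3 (1.90 to 2.80) and Naaa (1.69 to 2.24) lie farthest to the right, and Lyz2, Ctsb and Lgmn at the bottom farthest to the left.

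Of 11 genes shared by conventional dendritic cells, 10 had higher levels in cDC1 in all 6 sets, where 246 of all genes (12.4%) did. By the rule 3 (Cst3, Btla and Kmo) were higher and 0 were lower, where 1.11% and 1.16% of all genes were. The list's median difference was 0.52. Btla, an inhibitory receptor of lymphocytes and dendritic cells, had levels of 0.56 to 0.90 in cDC1 (median 0.71) and at most 0.03 in other myeloid cells. Flt3, the receptor for the growth factor on which dendritic cells depend, had 0.46 to 0.82 (median 0.67) against 0.04 to 0.08. In set 1 Flt3 stood at 238 CPM, a ratio of 19.2 (interval 11.6 to 32.4). The ranges of the set levels did not overlap for either gene, although Flt3 fell short of a difference of 0.5 in at least 1 set. Among single cells, a Flt3 value of at least 1 was held by 34.1% of cDC1 and 2.66% of other myeloid cells. For Btla these shares were 37.7% and 1.01%. Kmo, an enzyme of tryptophan breakdown, was at 0.59 to 0.93 against 0.08 to 0.16. Itgax, the integrin chain CD11c, was at 1.05 to 1.61 against 0.63 to 0.99, and Dpp4, the surface peptidase CD26, at 0.38 to 0.72 against 0.07 to 0.14.

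The MHC class II list split into genes of the complex and proteases. Of 9 genes, 4 were higher (H2-Ab1, H2-Eb1, H2-Aa and Cd74) and 2 were lower (Ctss and Lgmn), where 1.11% and 1.16% of all genes were. The list's median difference was 0.56. H2-Ab1, a class II beta chain, had levels of 3.34 to 3.81 in cDC1 (median 3.49) and 1.97 to 2.52 in other myeloid cells (median 2.10). H2-Aa, the alpha chain, was at 2.82 to 3.41 against 1.73 to 2.27, and H2-Eb1 at 2.56 to 3.19 against 1.5 to 1.86. Cd74, the invariant chain that guides class II through the cell, was at 3.29 to 3.69 against 2.23 to 2.77. The smallest set difference of these 4 was 0.70, for H2-Aa in set 3. In the UMIs of set 1 their ratios were smaller than those of Naaa or Itgae, at 2.13 for H2-Ab1 (interval 1.98 to 2.29), 2.02 for H2-Eb1, 1.74 for H2-Aa and 1.62 for Cd74 (1.5 to 1.75).

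H2-Ob and H2-DMb2, parts of the peptide-loading machinery of class II, were also higher in all 6 sets. H2-Ob had levels of 0.53 to 0.73 in cDC1 against 0.02 to 0.08, with a set 1 ratio of 19.9 (interval 9.53 to 43.3). H2-DMb2 had 0.53 to 0.80 against 0.09 to 0.19, and H2-DMa 1.33 to 1.57 against 0.83 to 1.04. On the other side stood the proteases that trim the invariant chain and antigen. Ctss, cathepsin S, was at 1.25 to 1.66 in cDC1 and 2.29 to 2.76 in other myeloid cells, with a set 1 ratio of 0.23 (0.18 to 0.28). Lgmn, legumain, was at 0.17 to 0.63 against 1.5 to 2.12. It had 6 of 176573 UMIs in the set 1 cDC1 against 3560 of 2179013. Among members past the myeloid gate the Ctss difference was not of 1 sign and reached 0.32 in the opposite direction.

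MHC class I, by which cDC1 cross-present, had few genes in the table, and 0 of 4 met the rule in either direction. With 1.11% of all genes higher and 1.16% lower, a count of 0 of 4 is no result. H2-K1, a classical class I heavy chain, had levels of 2.59 to 3.10 in cDC1 and 3.04 to 3.25 in other myeloid cells, with overlap. H2-Q7, a non-classical class I gene whose reads may be shared with close relatives such as H2-Q6, was at 0.72 to 1.23 against 0.70 to 0.78.

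**Figure D3:**
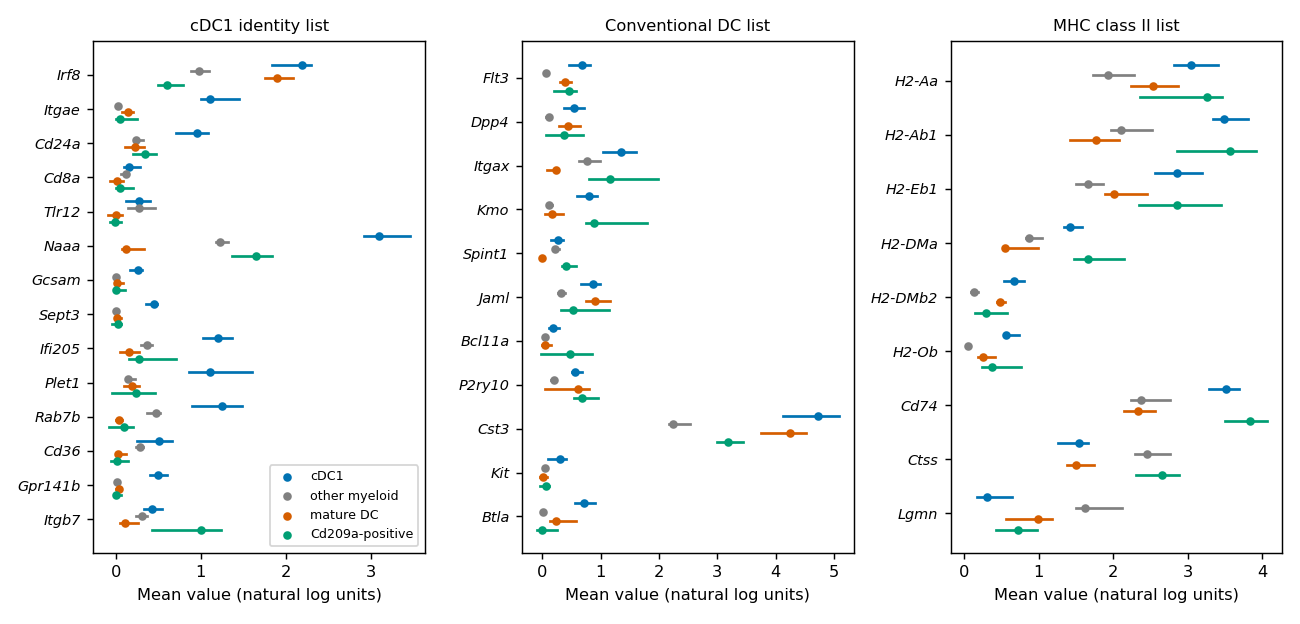
Mean value in natural log units of each gene of the cDC1 identity list (left), the conventional dendritic cell list (middle) and the MHC class II list (right) in 4 classes; points are medians over the 6 sets and lines span the lowest to the highest set. Naaa, Itgae and Plet1 are highest in cDC1, while Ctss and Lgmn are lower in cDC1 than in other myeloid cells.

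Another 7 leading genes, of which Plet1 is on the identity list, had mixed roles. Ckb, the brain-type creatine kinase, had levels of 1.22 to 1.64 in cDC1 and 0.25 to 0.39 in other myeloid cells. Gsn, the actin-severing protein gelsolin, was at 1.72 to 2.08 against 0.68 to 1.05. Asb2, a substrate-binding part of a ubiquitin ligase, was at 1.08 to 1.39 against 0.12 to 0.28, and Serpinb6b, a serine protease inhibitor, at 1.07 to 1.44 against 0.21 to 0.29. Plet1, a glycosylated surface protein, ranged most widely of these genes, from 0.86 to 1.60 against 0.12 to 0.23. Gm2a, the lysosomal activator of ganglioside breakdown, was at 1.90 to 2.49 against 1.09 to 1.48, and Plbd1, a phospholipase B-like enzyme, at 2.12 to 2.63 against 1.15 to 1.51. These 7 were named for their large difference in every set, so that they were higher in each set is no result. Their set 1 ratios, from the same cells, lay between 2.94 for Gsn and 7.60 for Serpinb6b.

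The genes lower in cDC1 were those of phagocytes. Lyz2, lysozyme, had levels of 0.17 to 0.51 in cDC1 (median 0.30) and 1.55 to 1.70 in other myeloid cells (median 1.59). It had 10 of 176573 UMIs in the 33 set 1 cDC1 against 3413 of 2179013. The cathepsin genes Ctsb and Ctsc were at 0.42 to 0.86 and 0.44 to 0.76 in cDC1, against 1.82 to 2.30 and 1.55 to 1.99. Fcgr3, a receptor for immunoglobulin G, had levels from -0.01 to 0.08 against 0.79 to 0.95. In set 1 it had 0 UMIs in cDC1, where 3 UMIs would be 17.0 CPM, against 314 CPM in other myeloid cells. Cybb, the catalytic subunit of the phagocyte oxidase, was at 0.23 to 0.65 against 1.23 to 1.40, and Zeb2, a transcription factor of monocytes and macrophages, at 0.15 to 0.25 against 0.93 to 1.11. For Cybb the difference among members past the myeloid gate was not of 1 sign, with 0.22 in the opposite direction. The lower group also held Pla2g7, Tgfbi and Ms4a6c, with differences between -1.15 and -0.70.

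Of 21 chemokine genes, 15 had lower levels in cDC1 in all 6 sets and 1 (Cx3cl1) had higher levels, where 476 of all genes (24.0%) were lower. By the difference of 0.5, 0 were higher and 2 were lower, Ccl6 (difference -1.11 to -0.62) and Ccl24 (-1.27 to -0.62), with a list median of -0.24. Of 12 cytokine genes, 0 were higher and 3 were lower, Il1b, Il1rn and Osm. Over all genes 1.11% were higher and 1.16% lower by this difference. Il1b, the inflammatory cytokine interleukin 1 beta, had levels of 0.61 to 0.93 in cDC1 against 1.60 to 1.93. Il1rn, which encodes the antagonist of its receptor, had 0 of 176573 UMIs in the set 1 cDC1 and 675 of 2179013 in other myeloid cells. Il12b, a subunit of interleukin 12, which cDC1 are known to make on activation, had 0 UMIs in the set 1 cDC1, and its difference lay between -0.02 and 0.05 over the sets. A count of 0 in these cells allows a level of up to 17.0 CPM, taken as 3 UMIs.

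Cxcl9, an interferon-induced chemokine that attracts CXCR3-bearing T cells, gave values that depended on the scale. Its levels in cDC1 were 0.93 to 1.29 (median 1.04) and in other myeloid cells 0.63 to 1.12 (median 0.88), so the classes overlapped, and cDC1 were higher in 5 of the 6 sets. In set 1, by contrast, Cxcl9 stood at 368 CPM in cDC1 and 724 in other myeloid cells, a ratio of 0.51 (interval 0.39 to 0.65). A Cxcl9 UMI was found in 60.6% of set 1 cDC1 and 36.3% of other myeloid cells, or 21.2% and 24.3% of thinned cells, against 4.22% of thinned hepatoma cells. No order between the classes was read from these values. Cxcl10, another ligand of CXCR3, was lower in cDC1 on both scales, with levels of 0.16 to 0.39 against 0.64 to 0.84. In set 1 it had 7 of 176573 UMIs in cDC1 against 1479 of 2179013 in other myeloid cells. Of 23 interferon-induced genes 0 differed by 0.5 in all sets in either direction, and the list median was -0.11. By that difference 1.11% of all genes were higher and 1.16% lower. In all 6 sets 14 of the 23 were lower in cDC1, where 24.0% of all genes were. Only Iigp1, an interferon-induced GTPase, was higher in all 6 sets (difference 0.16 to 0.38), where 12.4% of all genes were.

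Of 13 costimulatory and checkpoint genes, 1 was higher (Btla) and 1 lower (Sirpa, the receptor for CD47, which cDC1 carry little of). The list median was -0.00097, and 1.11% of all genes were higher and 1.16% lower. Cd83, a surface marker of activated dendritic cells, had levels of 1.21 to 1.48 in cDC1 against 0.70 to 0.94, and Cd86, the ligand of CD28, 0.58 to 0.87 against 0.35 to 0.47. Both were among the 5 of 13 genes higher in all 6 sets, where 12.4% of all genes were. Their set 1 ratios were 1.65 (interval 1.33 to 2.03) and 1.40 (0.956 to 1.99). The interval of Cd86 spans 1. Cd274, the PD-1 ligand PD-L1, overlapped between the classes at 0.42 to 0.69 against 0.59 to 0.74. Havcr2, which encodes TIM-3, was at 0.41 to 0.70 against 0.24 to 0.38, with a set 1 ratio of 2.69 (1.74 to 4.05).

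**Figure D4:**
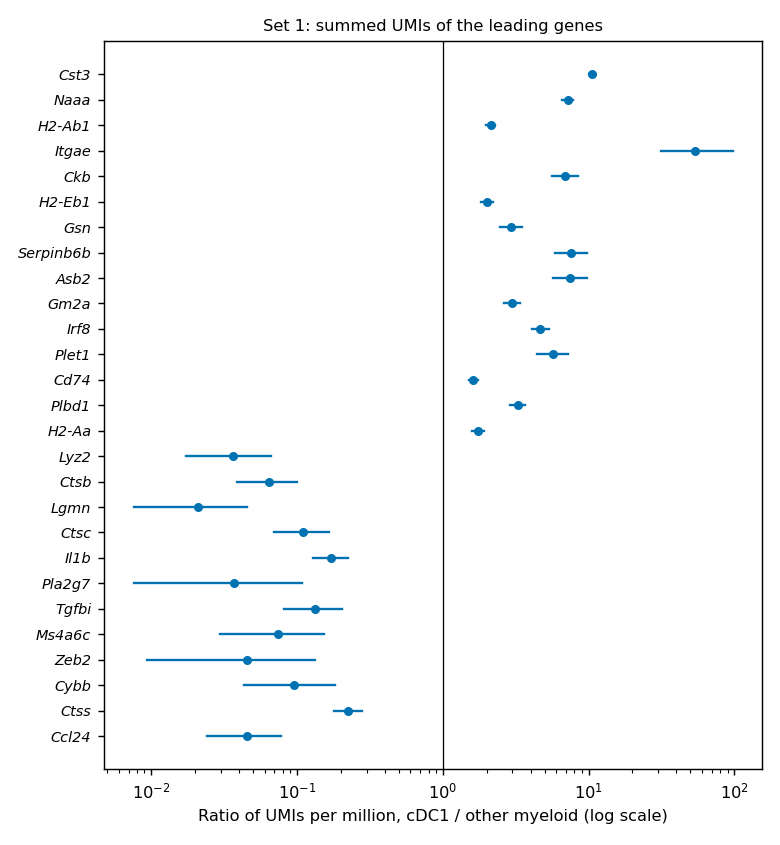
Ratio of summed UMIs in set 1, as CPM, 33 cDC1 over 551 other myeloid cells, on a log axis, for the leading genes; bars are exact 95% Poisson intervals, which cover counting error only. Itgae has the highest ratio drawn, 53.7, and Fcgr3 and Il1rn are not drawn because cDC1 held 0 UMIs of them.

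Lists of other cell types were summed in the same way. The summed level of 17 macrophage genes was 2.97 to 4.21 in cDC1 against 8.25 to 10.9 in other myeloid cells, and 7 of them, Mrc1, Cd163, Ms4a7, Trem2, Mertk, Pf4 and Cx3cr1, had 0 UMIs in the set 1 cDC1. For 15 monocyte genes the sums were 2.35 to 3.04 against 6.78 to 7.35. For 13 T-cell genes they were 0.219 to 0.633 against 0.969 to 1.44, with Cd3d and Trac at 0 UMIs, and for 11 natural killer genes 0.0298 to 0.205 against 1.13 to 3.08, with Ncr1, Gzma and Prf1 at 0 UMIs. These low sums stand beside the exclusion of T-cell and C1q genes by the rule. The comparison cells had no such limit: 12.9% of them had a Prf1 value of at least 1 and 12.8% a Trbc2 value of at least 1. The part of lymphocytes among the comparison cells in these sums was not tested. For 7 genes of plasmacytoid dendritic cells the sums overlapped, at 0.517 to 1.70 against 0.761 to 1.33, with Siglech, a lectin that marks those cells, at 1 UMI and Spib, one of their transcription factors, at 0. The sum of 10 B-cell and plasma cell genes was higher, at 0.518 to 1.31 against 0.269 to 0.445. Among them Ighm, the immunoglobulin mu chain, was at 0.40 to 0.68 against 0.17 to 0.30, while Cd79b, Ms4a1 and Igkc had 0 UMIs in the set 1 cDC1. The sum of 21 hepatoma genes, led by Afp and Alb, was 8.25 to 9.69 in cDC1 and 9.21 to 9.94 in other myeloid cells. The sum of 9 mitochondrial genes was 11.97 to 13.47 against 11.58 to 12.39, and the parts of these in the differences above were not tested. The doublet caller marked 0 of the 33 set 1 cDC1. It marked only 68 of all 9370 set 1 cells (0.726%), so a count of 0 of 33 is no result.

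Mature dendritic cells were compared because cDC1 can mature into them, but the origin of the cells taken here was not traced. They were defined by a mean of at least 1.2 for Ccr7, Fscn1 and Ccl22, with the same limits on T-cell and C1q genes, and numbered 225. Of 1987 genes, 24 (1.21%) were higher in cDC1 and 24 (1.21%) were lower. Naaa was at 2.92 to 3.46 in cDC1 and 0.08 to 0.33 in mature cells, and in set 1 the 24 mature cells held 1 UMI of it against 913. Psap, the precursor of lysosomal saposins, was at 3.64 to 4.17 against 1.5 to 2.16, Plbd1 at 2.12 to 2.63 against 0.17 to 0.43, and Gm2a at 1.90 to 2.49 against 0.18 to 0.37. These 4 are lysosomal or related enzymes and cofactors. Mpeg1, the pore-forming perforin-2 of phagocytes, was at 1.71 to 2.13 against 0.14 to 0.39, and Ckb and Alox5ap, the latter needed for leukotriene synthesis, differed by 1.18 to 1.64 and 1.10 to 1.44.

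Of 16 genes of the mature program outside the rule, 6 were lower in cDC1 than in mature cells and 0 were higher. The list median was -0.65, and 1.21% of all genes were lower and 1.21% higher. The summed level of the 16 genes was 5.70 to 6.28 in cDC1, 15.5 to 19.7 in mature cells and 4.18 to 4.91 in other myeloid cells. Samsn1, an adaptor protein gene, had levels of 0.05 to 0.14 in cDC1 and 1.92 to 2.25 in mature cells. Socs2, an inhibitor of cytokine signalling, and Marcksl1, an actin regulator, were at most 0.11 and 0.17 in cDC1, against at least 1.12 and 1.23. Tbc1d4, Fabp5, Ccl5, S100a4 and Rgs1 were lower too, with differences from -2.21 to -0.98. Serpinb6b, counted in the same list, was at 1.07 to 1.44 in cDC1 and 1.84 to 2.66 in mature cells, so that cDC1 stood between mature and other myeloid cells. Cd86 and Cd83 overlapped between cDC1 and mature cells, with differences of -0.51 to 0.27 and -0.84 to -0.16. Within each set Cd83 was thus lower in cDC1. Irf8 and Cst3 overlapped too, at 1.75 to 2.08 and 3.75 to 4.51 in the mature cells. The Irf8 difference changed sign over the sets (-0.173 to 0.545), while Cst3 was higher in cDC1 within each set (0.0285 to 1.33). H2-Ab1 was higher in cDC1 (difference 1.27 to 2.22), whereas H2-K1 was lower in cDC1 in all 6 sets (-0.71 to -0.20) and Cd274 as well (-1.15 to -0.57).

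Cd209a-positive cells were taken as a class like the second type of conventional dendritic cell, for which Cd209a is one marker. They were myeloid cells with a Cd209a value of at least 1 and a cDC1 marker mean below 0.8 that met the same 3 exclusions. They numbered 87, with 7 to 22 a set. Of 1986 genes, 12 (0.604%) were higher in cDC1 and 18 (0.906%) were lower. Irf8 was at 1.84 to 2.30 in cDC1 and 0.49 to 0.79 in Cd209a-positive cells, Itgae at 1.00 to 1.44 against 0.00 to 0.26, and Naaa at 2.92 to 3.46 against 1.36 to 1.83. Asb2, Rab7b, Serpinb6b and Cst3 were higher as well, and Cxcl9 was at 0.93 to 1.29 against -0.16 to 0.36. Set 1 held 65 UMIs of Cxcl9 in cDC1 and 0 in its 7 Cd209a-positive cells, where 3 UMIs would be 86.6 CPM.

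Among the lower genes, Clec10a, a lectin of the second type, was at 0.11 to 0.26 in cDC1 and 1.17 to 2.14 in Cd209a-positive cells. Ccr2, the receptor that brings monocytes and their kin from blood, was at 0.15 to 0.44 against 1.11 to 1.55. S100a4, Ms4a6c, Gm42674, Wfdc17, Ctss and Il1b were lower too, with differences from -2.35 to -0.81. Of 9 class II list genes 0 were higher by the difference of 0.5 and 1 (Ctss) was lower, with a list median of -0.19. Over all genes 0.604% were higher and 0.906% lower. The ranges of H2-Ab1, H2-Aa, H2-Eb1 and Cd74 overlapped, although Cd74 was lower in cDC1 in all 6 sets (-0.54 to -0.0078) and H2-DMb2 higher (0.22 to 0.58). The 3 comparisons share the cDC1 cells. The Cd209a-positive cells, and mature cells past the myeloid gate, were also counted among the other myeloid cells. The values of the 3 comparisons are therefore given side by side and not counted together.

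**Figure D5:**
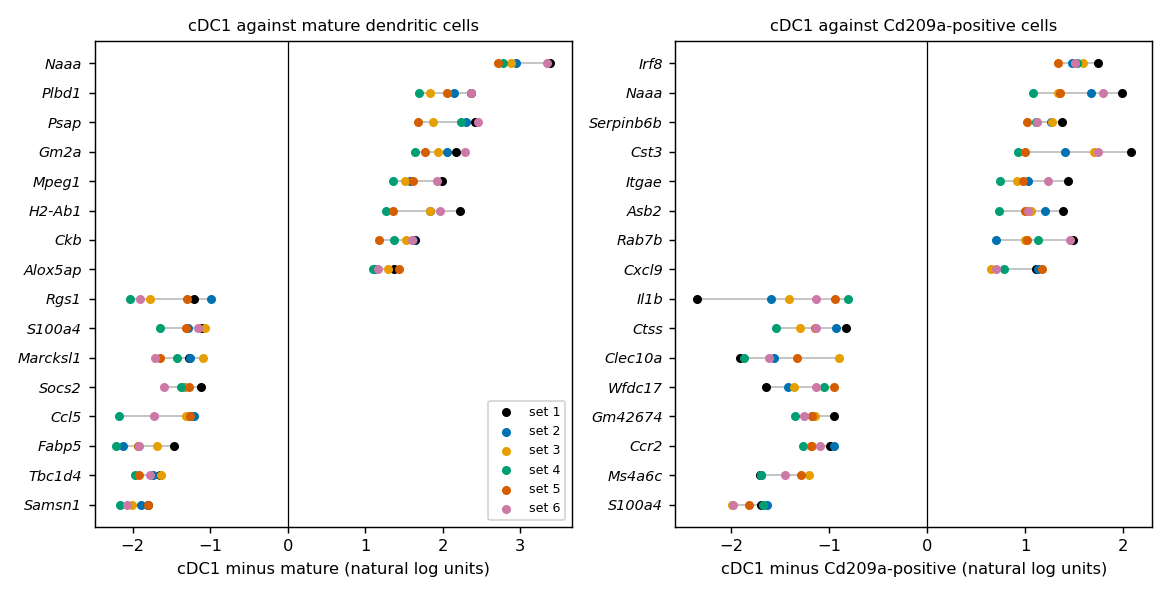
Difference of the mean value in natural log units, cDC1 less mature dendritic cells (left) and cDC1 less Cd209a-positive cells (right), for the 8 leading genes in each direction; each point is 1 of the 6 sets. Naaa is on the right of both panels, and Samsn1 (left) and S100a4 (right) lie among the lowest values.

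Cell division was measured as the share of cells with a mean of at least 1 over Mki67, Top2a, Cdk1, Ube2c and Cenpf, genes of late S phase to mitosis. It was 7.69% in cDC1 (21 of 273, interval 4.83% to 11.5%), with 6.06%, 3.33%, 14.8%, 4.55%, 6.12% and 7.06% in sets 1 to 6. In other myeloid cells it was 2.60% (interval 2.16% to 3.10%), and 1.00% to 3.63% over the sets. The cDC1 share was above that of other myeloid cells in each set, but with 1 to 8 such cells a set the intervals were wide and in set 1 ran from 0.743% to 20.2%. Among mature dendritic cells 2 of 225 were found, and among Cd209a-positive cells 0 of 87, which allows up to 4.15% by the exact interval. With a threshold of 0.5 the cDC1 share was 20.1%. Among the 61 members past the myeloid gate it was 1.64%, below the 2.60% of other myeloid cells, which passed the same gate. The order of the 2 classes thus depended on the gate. Of 24 genes of G2 and M phase and 17 of S phase, 0 differed by 0.5 in all sets from other myeloid cells. The list medians were 0.049 and 0.041, and 1.11% of all genes were higher and 1.16% lower by this difference. In all 6 sets 10 of the 24 and 9 of the 17 were higher in cDC1 and 0 were lower, where 12.4% of all genes were higher. Top2a, the topoisomerase of dividing cells, was at 0.36 to 0.50 in cDC1 against 0.15 to 0.32, while hepatoma cells had 0.51 to 0.72. Kif23, a motor of cell division, had a difference of 0.24 to 0.35, above 0 in all 6 sets. The part of the hepatoma level of these genes and of the depth of cDC1 in this share was not tested.

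The members also varied among themselves, and sets 1 and 4 held only 4 members past the myeloid gate each. The 61 members past the myeloid gate had a median Naaa level over the sets of 2.63, against 3.29 in the 212 others, and were lower in all 6 sets. Cst3 was at 4.05 against 4.91 and Cxcl9 at 0.762 against 1.12, both lower past the gate in all 6 sets. Cybb went the other way, at 1.08 against 0.207, as did Ctss at 1.73 against 1.42, higher past the gate in all 6 sets. So did Sirpa (0.777 against 0.369) and Zeb2 (0.352 against 0.151), while Fcgr3 was higher in only 2 sets. Of the rule genes, Xcr1 (0.621 against 1.11) and Wdfy4 (2.11 against 2.39) were lower past the gate in all 6 sets. Clec9a (0.988 against 0.824) was higher in 4. The name cDC1 is thus less sure for members past the gate, and their cell type was not tested. In set 1 the members with UMIs of all 3 rule genes had a median of 7284 UMIs, against 2742 with 2 of these genes and 2079 with 1, so the number of rule genes found moved with depth.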

How the data were processed

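Tumour cells were profiled by droplet 3′ RNA sequencing (DNBelab C4); per the submitters' processing notes reads were aligned with STAR 2.7.2b. Per the labels, UMIs were counted with PISA and cells called with barcodeRanks. The design text names the human genome GRCh38 and the notes also a mouse build, so no coordinates are given. The deposited table of 2000 genes holds natural log values: in set 1, the natural log of 1 plus UMIs per 10000. Its 53528 columns belong to no known sample, and the cells are handled as 1 sample, without p-values. Labels give 8 entries in 4 groups.

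In set 1, UMI totals were recovered for 9370 of 9370 cells, with 100% of nonzero values whole within 0.01 (1001 to 261833 UMIs a cell). In sets 2 to 6 every cell has values below 0, which no label explains, so their values are scaled or corrected differences rather than expression. Differences of mean value were taken within sets with numpy 2.4.6. Ratios of summed UMIs have conditional Poisson intervals and shares have Clopper-Pearson intervals (scipy 1.17.1, 95%); both cover counting error only, and a floor is 3 UMIs. For thinned shares every cell was drawn down to 1000 UMIs. Doublets were kept; Scrublet (scanpy 1.11.5, expected rate 6%) marked 68 of 9370 set 1 cells, or 0.726%. Hepatoma cells had a mean of Afp, Alb and Ttr of at least 2, with myeloid and T-cell means below 0.5. Cacnb3, also in the rule, was not analysed here.

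The members and gene lists were chosen with earlier results of these data known. Named genes are the 15 in each direction with the largest weakest difference over the sets (8 for the other 2 comparisons), and members of the lists; 1 of them is not reported here. The 13 genes used to choose cells were left out of counts. The counting was tested on simulated data. Alternatives changed each threshold, the sets, the summary (medians) and, for UMIs, depth, scaling and doublets.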

Additional observations from a re-analysis of the deposited data

How the results depend on the processing

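The share of cDC1 among all cells was 0.895% with a marker mean of at least 0.6, 0.379% with 1.0, 0.114% for members past the myeloid gate, 0.352% in set 1 alone and 0.421% without set 6. Among myeloid cells it was 9.70%, 4.26% and 1.33% under the first 3 of these, 3.86% and 8.30% with a myeloid gate of 0.5 and 1.5, and 6.79% without set 4. The cycling share was 1.64% for members past the gate and 20.1% with a threshold of 0.5. Genes higher than in other myeloid cells numbered 4 with a marker mean of 0.6, 14 past the gate, 52 in set 1 alone, 49 with a difference of 0.3 and 2 with 1.0. Lower genes numbered 10, 8, 57, 57 and 1 under these settings, and 13 with medians. Leaving out each of sets 2 to 6 was chosen after seeing the data; since a gene had to differ in all 6 sets, it cannot remove a gene and says nothing of the calls' stability. The weakest difference reversed past the gate for Irf8 (-0.24), Cybb (0.22) and Ctss (0.32), and with medians for Ccl24 (0.016); the cause was not tested. The class II list's set 1 log2 median of 0.80 was 1.2 with thinned cells and 1.60 past the gate. No paired analysis was possible because the cells cannot be tied to the labelled samples. Depth limits set 1: 978 of 1987 genes had 0 UMIs in its 33 cDC1, so the median log2 ratio over all genes was -0.54, or 1.00 with zeros set to 3 UMIs.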
